A study of Mus musculus with 13 samples.

Results

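Imprinted genes are expressed mainly from the copy inherited from the father or from the copy inherited from the mother. H19, Igf2, Igf2r, Peg3, Peg10, Mest, Snrpn, Cdkn1c, Grb10 and Impact are imprinted genes of the mouse that lie outside the Dlk1-Meg3 domain. They were taken by gene symbol from a table of 24470 genes, and all 10 were found. Cells of the E14 mouse embryonic stem cell line, on a 129/Ola background, were grown in serum with leukemia inhibitory factor. In the low-input protocol, the transposase Tn5 cut open chromatin in permeabilised cells and poly(A) RNA was then captured on beads from the same lysate, so each portion of cells gave an ATAC library of accessible DNA and an mRNA library. The mRNA libraries comprised 10000 and 20000 cells in experiment 1, and 5000, 10000 and 20000 cells in experiment 2, run on another day according to the study's design text. The 8 ATAC lists comprised the 5 partners of these libraries and 3 Omni-ATAC libraries, an established protocol, from 5000, 10000 and 50000 cells. No genotype or treatment separated the groups, and all libraries came from this single line.

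The libraries were described in CPM, each count divided by the library's total and scaled to 1000000 counts. Total counts were between 13727122 and 20426252. A count of 0 allows up to 3 counts, equal to between 0.147 and 0.219 CPM. The summed level of 8 embryonic stem cell markers was 2571 to 2820 CPM, and 8 of 8 exceeded 10 CPM in at least 1 library. Markers of other cell types were low: 6 trophoblast markers summed to between 4.01 and 7.70 CPM and 5 mesendoderm markers to between 1.68 and 4.41 CPM. The values of primitive endoderm and fibroblast markers stand beside the comparison of experiments. In these bulk libraries fewer cells of a type and less RNA per cell cannot be told apart.

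At an imprinted gene, DNA methylation laid down in the egg or the sperm marks a control region on the copy from that parent, and the mark is kept through early development by ZFP57, its cofactor TRIM28 and DNA methyltransferase. Many imprinted genes act on growth, and embryonic stem cells are known to lose or gain imprints in culture. The counts and peak lists do not separate the parental copies, so the values below are sums over both copies.

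The stretches before the starts of Igf2r, Peg3, Mest and Grb10 are shown. Igf2r, Peg3 and Grb10 had peaks in these bases in the open-chromatin list with the most peaks, and Mest had none in any list. Peg3 shares its stretch with a neighbour. The stretches are from RefSeq, build GRCm38.p6, and are read 5′ to 3′ on the strand of the gene. A RefSeq promoter was matched for 6 of the 10 genes, and H19, Peg10, Cdkn1c and Impact were not matched. Capitals mark motifs found by their letters on either strand within 250 bases before a start. The motifs searched were the E-box CACGTG, held by 6.02% of 32851 mouse promoters of this length, the GC box GGGCGG (32.7%), the CCAAT box CCAAT (33.8%), the TATA box TATAAA (12.4%), the cyclic AMP response element TGACGTCA (1.55%) and TGCCGC (8.68%), the core letters bound by ZFP57 when methylated. For Peg3 only 163 bases are shown, and the full 250 also hold 1 cyclic AMP response element, upstream of the printed stretch. A match describes letters and is no evidence of binding.

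Igf2r, chr17:12769707-12769956, minus strand, ends at the start of the gene and holds 2 E-boxes and 3 GC boxes:
Igf2r: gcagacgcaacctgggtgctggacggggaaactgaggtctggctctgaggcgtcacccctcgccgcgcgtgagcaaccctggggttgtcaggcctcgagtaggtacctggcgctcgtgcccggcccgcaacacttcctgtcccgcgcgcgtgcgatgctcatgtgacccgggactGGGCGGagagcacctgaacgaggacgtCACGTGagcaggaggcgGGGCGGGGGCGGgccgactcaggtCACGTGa
The widest of its promoter peaks, 242 bp in Omni-ATAC from 50000 cells, ran from 175 bp before the start to 66 bp after it and so covered both E-boxes. Peg3, chr7:6730420-6730582, minus strand, is the whole gap of 163 bp between Peg3 and the divergent gene Usp29, and holds 2 CCAAT boxes, written ATTGG on this strand:
Peg3: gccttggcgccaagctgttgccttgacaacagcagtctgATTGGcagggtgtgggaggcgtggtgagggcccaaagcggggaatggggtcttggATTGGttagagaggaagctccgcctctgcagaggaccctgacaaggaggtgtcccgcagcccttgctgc
Mest, chr6:30737803-30738052, plus strand, precedes a RefSeq start 4547 bp downstream of the start in the count table, and holds 2 matches to the ZFP57 letters, written GCGGCA on this strand, and 1 GC box:
Mest: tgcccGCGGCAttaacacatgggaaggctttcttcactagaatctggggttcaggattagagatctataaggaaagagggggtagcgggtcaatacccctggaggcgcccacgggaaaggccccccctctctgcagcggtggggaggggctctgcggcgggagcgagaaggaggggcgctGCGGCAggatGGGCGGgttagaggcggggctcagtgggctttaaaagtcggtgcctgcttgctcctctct
Grb10, chr11:12037421-12037670, minus strand, holds 5 GC boxes, of which the last 2 overlap:
Grb10: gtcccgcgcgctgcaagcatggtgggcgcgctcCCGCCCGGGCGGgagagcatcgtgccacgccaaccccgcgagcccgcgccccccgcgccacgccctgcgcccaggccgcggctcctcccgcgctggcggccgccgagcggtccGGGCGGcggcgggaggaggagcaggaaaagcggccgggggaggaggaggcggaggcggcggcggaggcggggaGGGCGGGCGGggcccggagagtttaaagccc
The Grb10 stretch held 40 CpG and the Igf2r stretch 27, above the upper quartile of 16 over the 32851 promoters. The Mest stretch held 14, and the median promoter held 6.

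The first group of genes surrounds the growth factor IGF2. Igf2, paternally expressed, encodes it. H19, maternally expressed, is a noncoding RNA that shares its enhancers, and Igf2r, maternally expressed, encodes a receptor that takes IGF2 up for breakdown. H19 (chr7:142575530-142578146, mm10, minus strand) had 0 counts in all 5 libraries, which allows up to 0.219 CPM in the shallowest. Igf2 (chr7:142650768-142666816, minus strand) was at 1.38 and 3.14 CPM with 10000 and 20000 cells of experiment 1, and at 2.57, 1.29 and 2.59 CPM with 5000, 10000 and 20000 cells of experiment 2. It was lowest in both libraries from 10000 cells, and the experiments overlapped. Igf2r (chr17:12682406-12769706, minus strand) was at 19.8 and 23.2 CPM in experiment 1 and at 12.6, 22.2 and 22.0 CPM in experiment 2, in the same order of cell numbers. The library from 5000 cells was the lowest, and its 95% Wilson interval, which ended at 14.4 CPM, lay below those of the other 4 libraries. Airn, the noncoding RNA that silences Igf2r on the paternal copy, overlaps 28396 bp of Igf2r on the other strand and had 0 counts in all 5 libraries.

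The second group restrains growth. Cdkn1c, maternally expressed, encodes the cyclin-dependent kinase inhibitor p57, and Grb10 encodes an adaptor protein that dampens insulin receptor signalling and is expressed from the maternal copy in most tissues. Cdkn1c (chr7:143458339-143461050, minus strand) was at 140.2 and 128.1 CPM in experiment 1 and at 63.4, 58.5 and 82.0 CPM in experiment 2. Both libraries of experiment 1 were above all 3 of experiment 2, and no counting interval crossed between the experiments. Grb10 (chr11:11930499-12037420, minus strand) had 0 counts with 10000 cells of experiment 1 and 1.07 CPM with 20000, and 1.79, 0.903 and 0.881 CPM in experiment 2. The library at 0 stood below the others, and the remaining 4 overlapped.

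The third group is paternally expressed. Peg10 derives from a retrotransposon and is needed for the placenta, Peg3 encodes a zinc finger protein, Mest a hydrolase-like protein, Snrpn a small nuclear ribonucleoprotein subunit, and Impact a regulator of the translational stress kinase GCN2. Impact was at 50.4 and 50.0 CPM in experiment 1 and at 76.5, 101.2 and 90.6 CPM in experiment 2, so the groups did not overlap. Peg10 (chr6:4747306-4760517, plus strand) was at 12.6 and 10.0 CPM in experiment 1 and at 2.39, 7.03 and 5.87 CPM in experiment 2, again without overlap and lowest with 5000 cells. Its divergent neighbour Sgce, which starts 101 bp away and is also paternally expressed, had 60 to 114 counts. Mest (chr6:30733506-30748466, plus strand) had 3 and 0 counts in experiment 1, and 8, 21 and 52 counts in experiment 2, equal to 0.477, 1.35 and 2.55 CPM. It was low everywhere and highest with 20000 cells of experiment 2. Peg3 (chr7:6705960-6730419, minus strand) had 4 to 15 counts, at most 0.895 CPM, with the highest value in the library from 5000 cells. Snrpn (chr7:59982502-60140219, minus strand) had 1 count in all libraries together, in the library from 10000 cells of experiment 2. Snurf, which shares 22655 bp with Snrpn on the same strand, had 0 counts. How reads in these shared bases were counted is not given, so the low counts do not show that either gene was silent.

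**Figure D1:**
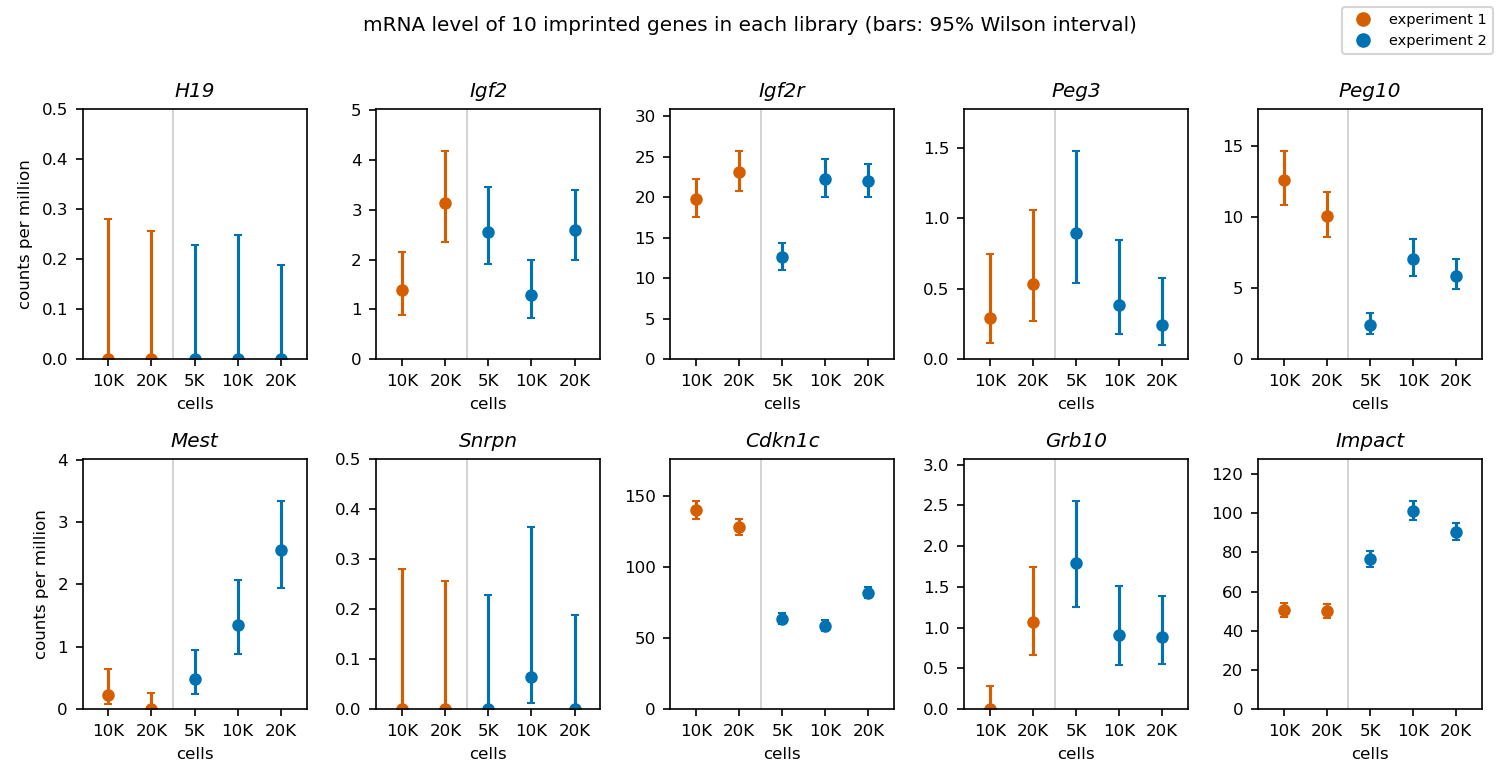
CPM of the 10 imprinted genes (vertical axes, each with its own range) in the 5 mRNA libraries by cell number and experiment, with 95% Wilson intervals for counting error as bars. Cdkn1c and Peg10 sit lower in all 3 libraries of experiment 2 than in both of experiment 1, Impact and Mest sit higher, and H19 is at 0 throughout.

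Levels are given within a gene only, since the table holds no transcript lengths. Several members share bases with other genes, and how shared reads and strand were treated in counting is not given in the sources used here. Mest shares 913 bp with the antisense gene Copg2, which had 180 to 371 counts, so reads in that stretch cannot be told apart. Igf2 shares 7124 bp with Igf2os, and Peg3 shares 865 bp with Peg3os. Both partners had 0 counts.

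The first comparison asked how far the expression of these genes repeated between days, with 10000 and 20000 cells in each experiment (2 libraries against 2). Impact and Mest were higher in experiment 2 and Cdkn1c was lower. Peg10 was lower by a similar amount without passing the threshold, and Igf2r barely moved. edgeR's quasi-likelihood test was fitted on the whole table, with adjusted p under 0.05 as the call. Of 12523 genes tested it called 12.5%, with 5.75% higher and 6.76% lower in experiment 2. Of the 10 members 7 passed the filter on low counts, all but H19, Peg3 and Snrpn, and 3 were called, 2 of them higher. Mest would not have passed the filter on the counts of experiment 1, so its presence among the tested genes rests on the group in which it was high, and only Impact and Cdkn1c were called with ample counts in both experiments. The members' median log2 fold change was 0.04, beside 0.001 over all genes tested. By the design text the libraries of an experiment share a day, so the p-values measure the spread between these libraries and hold no repeat of days.

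Impact averaged 50.2 ± 0.302 CPM in experiment 1 and 95.9 ± 7.50 CPM in experiment 2 (SD, n = 2 each). The ratio of experiment 2 to 1 was 2.01 with 10000 cells and 1.81 with 20000. The log2 fold change was 0.93 ± 0.14 (SE, edgeR adjusted p = 4.33e-05). Cdkn1c averaged 134.1 ± 8.55 and 70.2 ± 16.6 CPM, with ratios of 0.417 and 0.640. Its log2 fold change was -0.93 ± 0.14 (edgeR adjusted p = 8.20e-05), of the same size as that of Impact and opposite in sign. The library from 5000 cells lay on the side of experiment 2 for both genes.

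Mest averaged 0.109 ± 0.155 CPM in experiment 1 and 1.95 ± 0.843 CPM in experiment 2. With 10000 cells its ratio was 6.20, with an exact 95% interval from 1.85 to 32.4 for counting error. With 20000 cells it was at least 12.7-fold higher against the floor of 3 counts in that library of experiment 1, a bound that leaves out the counting error of the 52 counts in experiment 2. The fitted log2 fold change, 4.11 ± 1.09 (edgeR adjusted p = 0.0131), rests on 3 counts in experiment 1 and depends on the prior count. Leaving out a library leaves 1 in its experiment, which is assumed to vary like the libraries of the other. So fitted, the call was lost without the library from 10000 cells of experiment 2 (adjusted p = 0.0619, edgeR), without that from 20000 cells of experiment 1 (adjusted p = 0.0523, edgeR) and without that from 20000 cells of experiment 2 (adjusted p = 0.342, edgeR). With the 5000-cell library added to experiment 2, the log2 fold change of Mest was 3.71 (edgeR adjusted p = 0.0599). The antisense neighbour Copg2 had a log2 fold change of 0.40 ± 0.21 (edgeR adjusted p = 0.235).

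Peg10 averaged 11.3 ± 1.81 CPM in experiment 1 and 6.45 ± 0.816 CPM in experiment 2, with ratios of 0.558 and 0.585. Its log2 fold change was -0.81 ± 0.27 and missed the threshold (edgeR adjusted p = 0.0509). With the cell number as a replicate block, which pairs the experiments within 10000 and within 20000 cells, edgeR called 14.1% of genes and 4 members, with Peg10 at -0.81 (edgeR adjusted p = 0.0414). Peg10 also passed without the 20000-cell library of experiment 1, where the spread comes from experiment 2 alone, at -0.95 (edgeR adjusted p = 0.0179), and with the 5000-cell library added, at -1.12 (edgeR adjusted p = 0.0271). It did not pass with DESeq2 (adjusted p = 0.117), nor with edgeR without the 10000-cell library of experiment 1 (adjusted p = 0.231), that of experiment 2 (adjusted p = 0.132) or the 20000-cell library of experiment 2 (adjusted p = 0.279). Sgce, which starts 101 bp from Peg10, had a log2 fold change of -0.11 ± 0.33 (edgeR adjusted p = 0.885). The difference between the neighbours was not tested.

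Igf2r averaged 21.5 ± 2.36 and 22.1 ± 0.154 CPM, with a log2 fold change of 0.04 ± 0.19 (edgeR adjusted p = 0.925). Igf2 averaged 2.26 ± 1.25 and 1.94 ± 0.923 CPM, with a log2 fold change of -0.22 ± 0.60 (edgeR adjusted p = 0.877). Grb10 averaged 0.535 ± 0.757 and 0.892 ± 0.0153 CPM, with a log2 fold change of 0.71 ± 1.10 (edgeR adjusted p = 0.747). The fitted log2 fold changes of these 3 genes were smaller in size than their standard errors. In CPM, the differences of Igf2r and Grb10 exceeded the SD of experiment 2 alone.

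**Figure D2:**
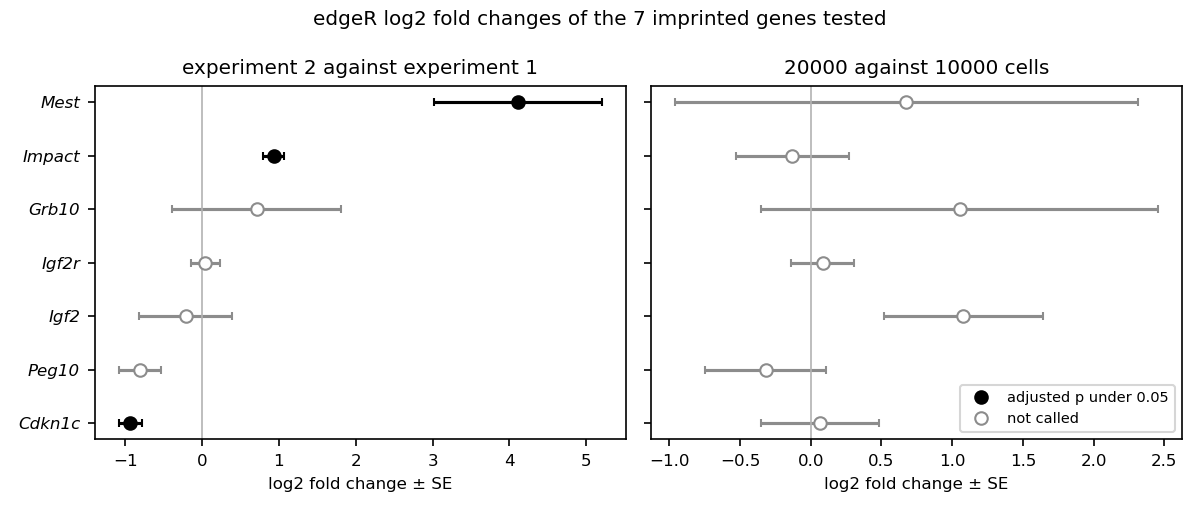
Fitted edgeR log2 fold changes (horizontal axes, with standard errors) of the 7 members that passed the filter, for experiment 2 against 1 (left) and for 20000 against 10000 cells (right). Filled points have an adjusted p under 0.05: Mest, Impact and Cdkn1c between experiments, and no gene between cell numbers. Mest passed the filter only through experiment 2.

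Over all 5 libraries, every library of experiment 2 was above every library of experiment 1 for 2 of the 7 members tested (Impact, and Mest, which passed the filter through experiment 2 alone), beside 17.7% of all genes tested. Every one was below for 2 members (Cdkn1c and Peg10), beside 23.9%. These counts were not tested against the shares, and with 7 genes nothing is read from them about the members as a group.

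Some markers of other cell types moved with the experiments. Of 8 primitive endoderm markers, 5 were tested and 3 were lower in experiment 2, beside 6.76% of all genes tested: Gata6, Dab2 and Col4a1. All 8 markers summed to 28.7 and 22.5 CPM in experiment 1 and to 5.31 to 7.98 CPM in experiment 2. Col4a1 alone gave 13.2 CPM with 10000 cells of experiment 1. Gata4, Sox17 and Foxa2 overlapped between experiments, with Gata4 at 14 and 2 counts in experiment 1 and 16, 2 and 4 in experiment 2. Pdgfra and Sox7 were lower in every library of experiment 2 than in both of experiment 1. Gata6, which specifies this lineage, had 44 and 22 counts in experiment 1 and 0, 0 and 6 in experiment 2. Dab2 had 113 and 65 counts in experiment 1 and 15, 16 and 10 in experiment 2. Neither would have passed the filter on the counts of experiment 2, so they entered the test through the group in which they were high. Of 10 fibroblast markers, 4 were tested and Thy1 alone was called, lower in experiment 2. Their sum was 34.3 and 36.5 CPM in experiment 1 and 10.1 to 11.3 CPM in experiment 2. Thy1 carried this difference: without it the other 9 summed to 5.10 and 2.68 CPM in experiment 1 and to 1.07, 4.58 and 3.04 CPM in experiment 2, which overlap. Pdgfrb, which was not called, was at 0.728 and 0.535 CPM in experiment 1 and at 0.477, 1.61 and 1.47 CPM in experiment 2, which overlap. The collagen gene Col3a1 and Lum were at 0 counts in all 5 libraries. Of 8 embryonic stem cell markers, Klf4 and Zfp42 were higher in experiment 2, beside 5.75% of all genes tested. Of 6 trophoblast markers 2 were tested and 0 were called by edgeR, with 1 at an unadjusted p under 0.05. Their sum was 4.01 and 4.68 CPM in experiment 1 and 7.70, 6.19 and 7.69 CPM in experiment 2. Of 5 mesendoderm markers 2 were tested and 0 were called by edgeR, again with 1 at an unadjusted p under 0.05. Their sum was 1.68 and 3.41 CPM in experiment 1 and 3.16, 4.26 and 4.41 CPM in experiment 2, which overlap. The part of these markers in the differences of the members was not tested.

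Cdkn1c lies in a cluster of maternally expressed genes on chromosome 7 that is controlled by the paternally expressed noncoding RNA Kcnq1ot1. Around Cdkn1c, 13 other listed imprinted genes start within 1000000 bp, a window chosen after the values were seen. Of the 10 tested, 4 were called, all lower in experiment 2, beside 6.76% of all genes tested, and 7 were negative in sign. Since the window followed the values, nothing is read from this count. Slc22a18, a transporter gene 12705 bp away, was at 28.3 and 26.9 CPM in experiment 1 and at 10.3, 7.55 and 14.6 CPM in experiment 2, a log2 fold change of -1.30 ± 0.23 (edgeR adjusted p = 0.000438). Ascl2, a transcription factor of the trophoblast, was the farthest called gene at 491786 bp and had a log2 fold change of -1.44 ± 0.46 (edgeR adjusted p = 0.0409). Its level was 3.86 and 5.62 CPM in experiment 1 and 3.76, 1.61 and 1.86 CPM in experiment 2. Cd81, a tetraspanin, had -0.43 ± 0.12 (edgeR adjusted p = 0.0226), and Phlda2, a restrainer of placental growth, had -0.36 ± 0.11 (edgeR adjusted p = 0.0346).

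Kcnq1ot1 had 12 and 16 counts in experiment 1 and 49, 66 and 29 counts in experiment 2, for 5000, 10000 and 20000 cells. The experiments did not overlap in CPM, and the log2 fold change was 1.53 ± 0.67 (edgeR adjusted p = 0.143), which is not a call. Tssc4, at 0.12, and Tspan32, at 0.67, were positive and not called, so the genes of the cluster did not all share a sign. Chromosome 7 as a whole had a median log2 fold change of -0.06, taken over its 511 genes that averaged 10 CPM or more.

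**Figure D3:**
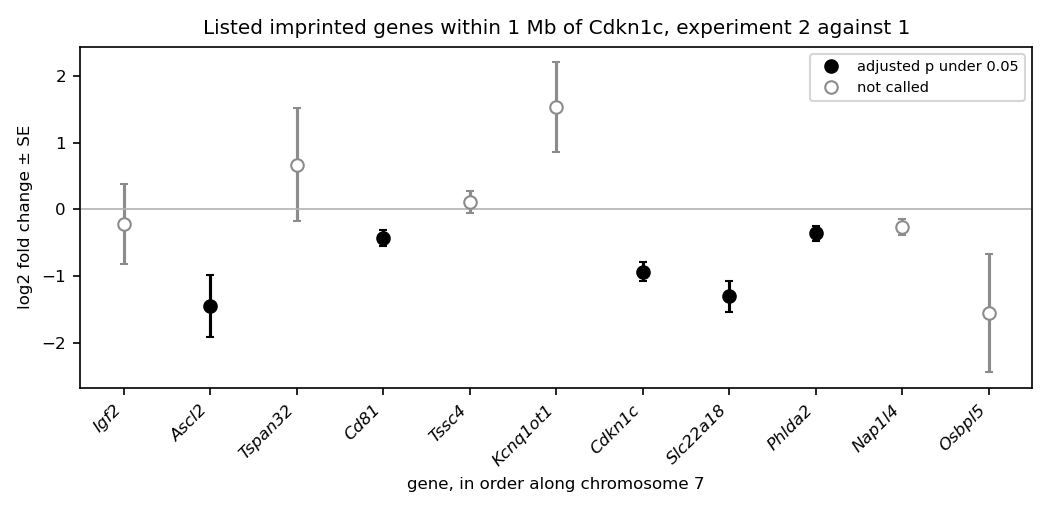
Fitted edgeR log2 fold change with its standard error (vertical axis) for Cdkn1c and the 10 tested imprinted genes around it, in their order along chromosome 7 (horizontal axis, not to scale), experiment 2 against 1. Filled points passed an adjusted p of 0.05: Ascl2, Cd81, Cdkn1c, Slc22a18 and Phlda2, all below 0.

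Of 22 other paternally expressed genes 10 were tested, and 2 were lower in experiment 2, beside 6.76% of all genes tested, with a median log2 fold change of -0.07. Zrsr1, a splicing factor gene, had -1.11 ± 0.18 (edgeR adjusted p = 0.000129), and Mcts2 had -0.65 ± 0.13 (edgeR adjusted p = 0.00147). Both are known as retrocopies of genes elsewhere, and how reads that match several places were counted is not given, so their counts may hold reads of these relatives. Of 26 other maternally expressed genes 18 were tested, with 4 lower, named above, beside 6.76% of all genes tested, and 1 higher, beside 5.75%. The latter was Commd1, the host gene of Zrsr1, at 0.46 ± 0.12 (edgeR adjusted p = 0.0116). The median of this list was -0.17.

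Of 12 genes of IGF signalling 8 were tested and 0 were called by edgeR, with 1 at an unadjusted p under 0.05 and a median of 0.06. Of 12 genes that maintain imprints, all 12 were tested and 3 were higher, beside 5.75% of all genes tested, with a median of 0.23. The list also holds Tet1 and Tet2, which oxidise methylated cytosine, and neither was called. Dppa3, which protects maternal methylation in the early embryo, was at 0.947 and 1.14 CPM in experiment 1 and at 14.9, 7.42 and 11.5 CPM in experiment 2. Its log2 fold change was 3.17 ± 0.40 (edgeR adjusted p = 5.85e-06). The insulator protein gene Ctcf had 0.57 ± 0.17 (edgeR adjusted p = 0.0284), and the histone methyltransferase gene Setdb1 had 0.44 ± 0.14 (edgeR adjusted p = 0.0406). Zfp57 was at 161.1 and 162.8 CPM in experiment 1 and at 161.3 to 183.5 CPM in experiment 2, and was not called.

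The second comparison asked whether the number of cells changed the members' levels. Between 20000 and 10000 cells edgeR called no member, with 0 of 7 past the threshold and 0 at an unadjusted p under 0.05. Over all 12523 genes 0% were called, with 101 at an unadjusted p under 0.05, and DESeq2 called 0 with 60 at an unadjusted p under 0.05. With the experiment number as a replicate block, which pairs the cell numbers within a day, edgeR called 0.0319% of genes, or 4, and 0 members. Igf2 had the smallest unadjusted p of the members, with 1.34 ± 0.0667 CPM from 10000 cells and 2.87 ± 0.389 CPM from 20000 cells (SD, n = 2 each). Its log2 fold change was 1.08 ± 0.56 (edgeR unadjusted p = 0.0993, adjusted p = 0.999). Cdkn1c had 0.07 ± 0.42 and Impact -0.13 ± 0.40. These standard errors hold the difference between experiments, which the fit without a block counts as spread.

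The unreplicated 5000-cell library was set beside the mean of the other libraries of experiment 2, with no test. Peg10 was at 0.370 times that mean and Igf2r at 0.569 times. Cdkn1c was at 0.902 times and Impact at 0.798 times. For the low genes, Peg3 was at 2.83 times on 15 counts and Grb10 at 2.01 times on 30 counts. Mest was at 0.245 times on 8 counts and Igf2 at 1.32 times on 43.

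Open chromatin was described from peak lists that give positions only, without heights. The lists held between 9097 and 95457 peaks, and the shortest peaks, of 9 bp, were 24.4% to 59.2% of a list, so a list without a peak is no measure of closed chromatin. A promoter peak overlapped the 1000 bp on either side of the gene's 5′ end in the count table. Of the 10 genes 6 had a promoter peak in at least 1 of the 8 lists, beside 61.6% of all 24470 genes. Members with no promoter peak in any list were H19, Igf2, Mest and Snrpn. None of the 10 had a promoter peak in all 5 low-input lists, beside 23.4% of all genes.

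In the low-input lists, the number of members with a promoter peak was 3 with 10000 cells of experiment 1 (31.1% of all genes) and 3 with 20000 cells (37.4%). In experiment 2 it was 0 with 5000 cells (31.1%), 1 with 10000 cells (40.5%) and 6 with 20000 cells (50.3%). In Omni-ATAC it was 2 with 5000 cells (18.6%), 4 with 10000 cells (41.5%) and 6 with 50000 cells (61.1%). The counts were not tested against these shares, and with 10 genes nothing is read from them about the members as a group. The 2 lists with the most peaks held 6 members each, but the others did not follow list size: the list from 10000 cells of experiment 2, with 29870 peaks, held 1 member, and Omni-ATAC from 5000 cells, with 9097, held 2.

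Cdkn1c and Peg3 had a promoter peak in 6 lists each, Igf2r in 5, Peg10 and Impact in 3 each, and Grb10 in 2. Most of these peaks were short: with peaks of at least 50 bp Cdkn1c had a promoter peak in 2 lists and the other 5 genes in 1 each. The window of Peg10 also takes in the start of its divergent neighbour Sgce. Its 9-bp peaks with 20000 cells of experiment 2 and in Omni-ATAC from 10000 cells lay inside Sgce. Cdkn1c was the only member whose promoter lay in the deposited unified list. Its peaks fell from 141 bp before to 102 bp after the start in 5 lists, and at 432 to 440 bp before it in 3. The promoter peaks of Peg3 fell mostly at 687 to 920 bp downstream of the start, in 6 lists, while the bases between Peg3 and Usp29 held a single peak of 95 bp in Omni-ATAC from 50000 cells. With a window of 500 bp Peg3 had a promoter peak in 1 list. Impact had promoter peaks in experiment 2, with 10000 and 20000 cells, and in Omni-ATAC from 50000 cells, and none in either list of experiment 1. The lists of experiment 2 at these cell numbers also held more peaks, 29870 and 49508 against 18877 and 27016, and the part of list size was not tested.

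**Figure D4:**
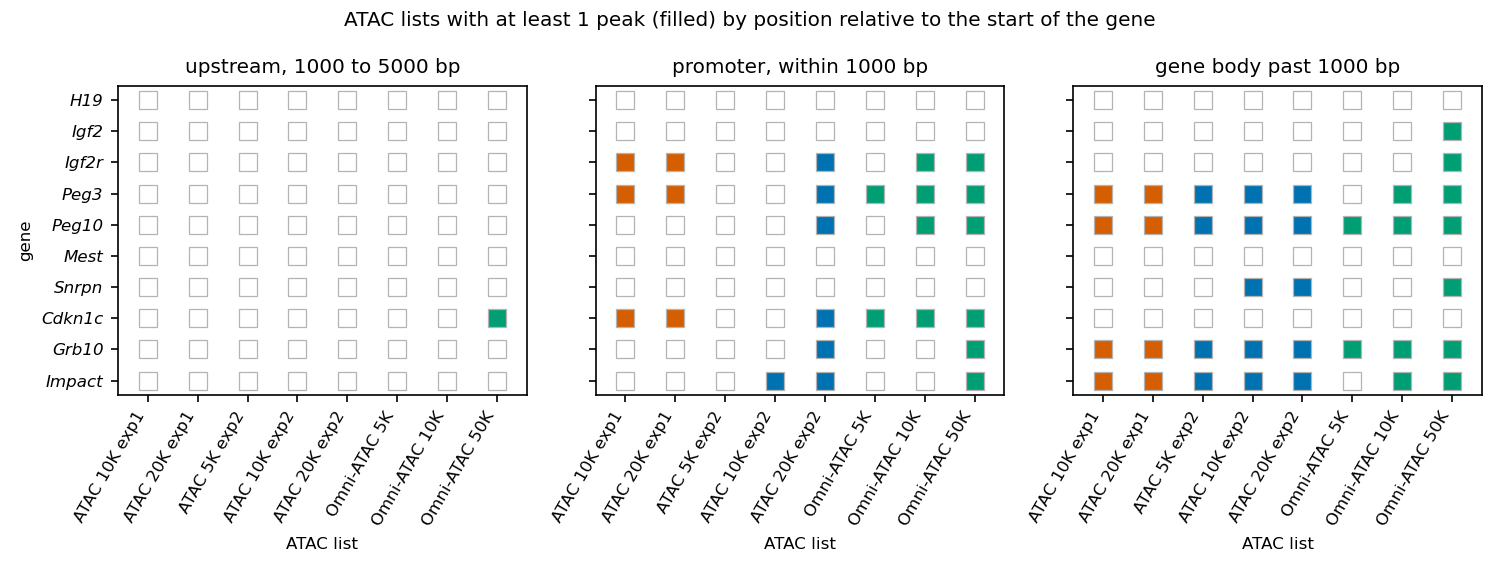
Presence (filled square) or absence (open square) of at least 1 peak in the 8 ATAC lists (horizontal axis) for the 10 genes (vertical axis), upstream at 1000 to 5000 bp, at the promoter and in the gene body. Peg10 and Grb10 have body peaks in all 8 lists, and H19 and Mest have no peak in any window.

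Inside the genes, past 1000 bp from the start, 7 of the 10 had a peak in at least 1 list, beside 45.6% of all genes. Peg3, Peg10, Grb10 and Impact had a body peak in all 5 low-input lists, 4 of 10 beside 8.76% of all genes. Peg10 and Grb10 had a body peak in all 8 lists, 2 of 10 beside 4.57%. With peaks of at least 50 bp Grb10 had one in 8 lists, Peg10 and Peg3 in 7 and Impact in 3. Gene length sets how many peaks a body can hold and differs between genes, and these shares were not tested. The 4 genes also had a body region in the unified list, for which the share of all genes is not given. Upstream at 1000 to 5000 bp, only Cdkn1c had a peak, in Omni-ATAC from 50000 cells, beside 21.9% of all genes with an upstream peak in at least 1 list. H19 had no peak there, although its control region is known to lie upstream of it.

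Peaks of the 8 lists within 250 bp of each other were joined into sites, a rule added after the data were seen. The site of Peg10, chr6:4748993-4749455, lay 1687 to 2149 bp downstream of the start and was present in all 8 lists, with peaks of 9 to 463 bp. The Peg3 site found in the most lists, chr7:6727318-6728979, lay 1440 to 3101 bp downstream and was present in 7 lists, all 5 low-input ones included. Its widest peak was 662 bp, with 20000 cells of experiment 2. For Peg10 and Peg3 the site past the promoter window was thus present in more lists than the bases at the start.

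Grb10 had a pair of sites far inside the gene. The site at chr11:11949066-11949330, 88090 to 88354 bp downstream of the start, was present in all 8 lists with peaks of 14 to 265 bp, and that at chr11:11942622-11942935 was present in 7. A wider site, chr11:12025582-12026546, lay 10874 to 11838 bp downstream of the start, with a peak of 965 bp at the widest, and was present in 3 lists: 20000 cells of experiment 2, and Omni-ATAC from 10000 and 50000 cells. RefSeq lists another start of Grb10 at 9449 bp downstream. Grb10 thus had recurrent open sites in its body at 0 to 30 counts of mRNA per library.

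Impact (chr18:12972252-12992948, plus strand) had a site 2081 to 2300 bp downstream of the start in 7 lists and another 916 to 1712 bp downstream in 6. The first was present in all 5 low-input lists, with peaks of 9 to 220 bp, so both experiments had it. The gene's start in the RefSeq gene table lies further upstream than in the count table, and with that start 0 lists had a promoter peak. The control regions of Peg3 and Impact are known to reach into their first introns. The files give no exons and no methylation, so the sites were not compared with these regions.

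**Figure D5:**
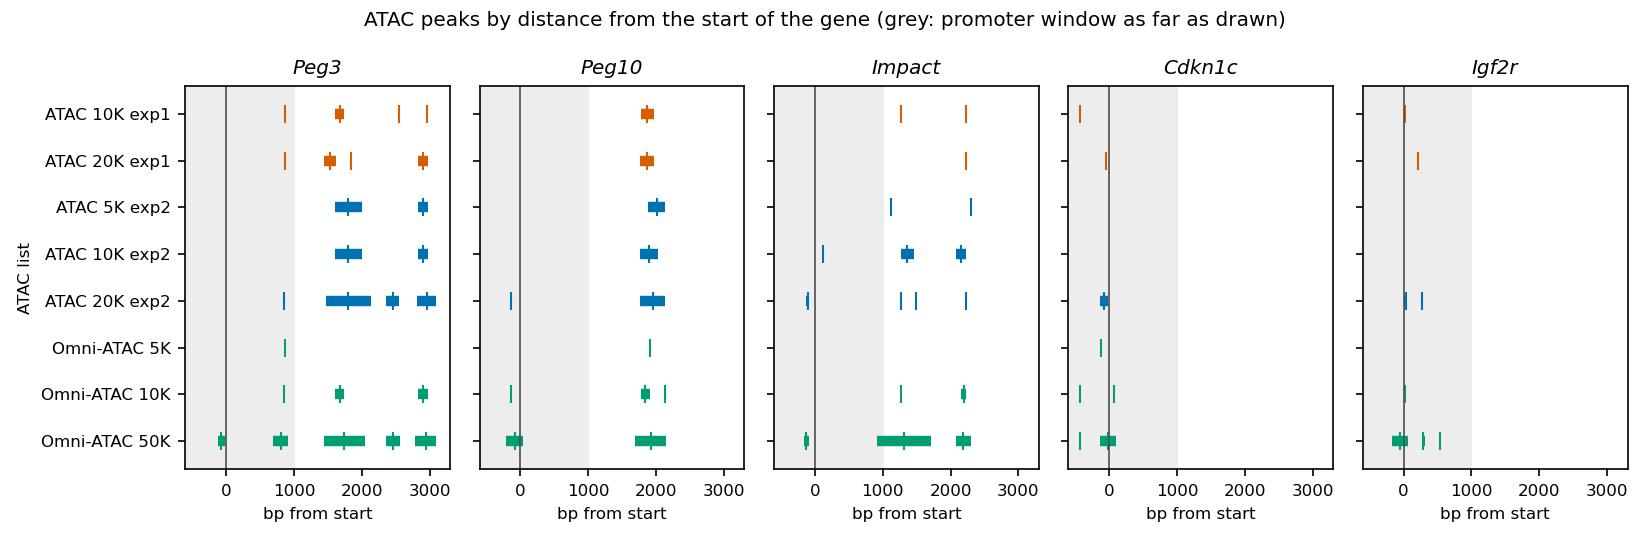
Peaks (bars, with a tick at the centre so that the shortest can be seen) by distance from the gene's start (horizontal axes, bp, positive downstream) in the 8 ATAC lists for Peg3, Peg10, Impact, Cdkn1c and Igf2r, with the promoter window in grey as far as drawn. Peg3, Peg10 and Impact have their most recurrent peaks past 1000 bp, and Cdkn1c and Igf2r have theirs around the start.

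Igf2r had promoter peaks 13 to 21 bp downstream of the start in the lists from 10000 cells of experiment 1 and of Omni-ATAC, and a single body peak of 9 bp, 28431 bp downstream, in Omni-ATAC from 50000 cells. Igf2 had a single body peak in the same list, near a RefSeq start 8012 bp downstream of the start in the table. Snrpn had body peaks in 3 lists, 133749 to 137242 bp downstream, around a RefSeq start at 135020 bp. When the RefSeq starts of the matched genes were added to the starts in the count table, 8 of the 10 genes had a promoter peak in at least 1 list. The starts were added for the members only, so no share of all genes stands beside this count and nothing is read from it. H19 and Mest had no peak from 5000 bp upstream to the gene's end in any of the 8 lists. For Mest this held also at the starts 4544 and 4547 bp downstream, whose sequence is printed above. Mest mRNA reached 52 counts with 20000 cells of experiment 2, where the partner ATAC list held 49508 peaks and none at Mest.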

How the data were processed

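The analysis started from gene counts of 5 mRNA libraries and peak lists of 8 ATAC libraries. Groups, cell numbers and experiments came from the sample titles. The members and gene lists were chosen with earlier results of these data known, so their counts are descriptions. By rule, the named genes are the 10 members and, from each list, the genes called between experiments, up to the 6 largest. Other genes, such as neighbours of members and uncalled genes of the lists, were named after their values were seen.

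The authors deposited 1 table of raw counts per gene, all whole numbers, with mm10 coordinates. ATAC peaks were deposited as intervals without scores, 1 list per library and a unified list. Per the submitters' processing notes, which give no roles, the tools were cutadapt, Bowtie2 2.1.0, SAMtools 1.3.1, Picard, bedtools 2.24.0, MACS2 2.1.1, STAR 2.5, featureCounts and Subread 1.5.0-p1. Strand use, multiply mapped reads and peak thresholds are not given in the sources used here. Zfp264, 1 of the listed genes, was not matched in the table.

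CPM were computed from the counts and the library total. Intervals are 95% Wilson intervals, and they and the floor of 3 counts describe counting error alone, because reads that carry no molecular identifier may be copies of 1 molecule. The depth of the ATAC libraries is unknown. Tests used edgeR 4.0.16 (TMM, filterByExpr, quasi-likelihood, R 4.3.3) on the 4 libraries from 10000 and 20000 cells, with Benjamini-Hochberg adjustment over all genes tested and a threshold of 0.05. Standard errors were derived from the fold change and its F statistic. DESeq2 1.42.0 was an alternative. The test was checked on simulated counts: between experiments 46% of 2-fold and 98% of 4-fold differences were recovered over 12464 genes, and between cell numbers 2% and 48% over 12542 genes.

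The series' design text places the experiments on different days, and the sample titles give the experiment number. The main tests had no block, and fits with a block for the pairs were alternatives. Experiment 2 differed from experiment 1 in the same direction at both cell numbers in 67.0% of 11575 genes. This shows how far the difference repeated and does not check the pairing. Starts in the count table equalled RefSeq starts in 58.4% of 24435 matched genes. Alternatives were other scalings, filters and calls, a block, leaving out each library, other promoter windows and start sites, and peaks of at least 50 bp. Any RefSeq start and the joining of sites were added after the data were seen. Figures and peak counts were made in Python 3.11.15 with matplotlib 3.10.9, pandas 2.3.3, scipy 1.17.1 and numpy 2.4.6.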

Additional observations from a re-analysis of the deposited data

How the results depend on the processing

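Between experiments, 612 genes and 1 member (Mest) were called when a log2 fold change of at least 1 was also required. Impact and Cdkn1c, at 0.93 and -0.93, fall just short of it. Leaving out each library in turn gave 803 to 1815 called genes and 2 to 3 called members. Impact kept its direction and its adjusted p under 0.05 in every fit run, with log2 fold changes of 0.86 to 1.03, and so did Cdkn1c, at -1.18 to -0.70. Peg10 ran from -1.12 to -0.64, with edgeR or DESeq2 adjusted p of 0.0179 to 0.279. Mest ran from 3.14 to 8.06, with adjusted p of 0.00295 to 0.342. With the cell number as a replicate block 4 members were called in place of 3. With no filter the median of all genes was 0.12 and the 3 members stayed called.

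Igf2, Igf2r and Grb10 changed sign with fewer or more libraries, and the cause was not tested. Without 1 library Igf2 ran from -0.80 to 0.51, Igf2r from -0.063 to 0.18 and Grb10 from -0.26 to 6.90. Igf2 was at 0.20 without the 10000-cell library of experiment 2 and 0.51 without the 20000-cell library of experiment 1. Igf2r was at -0.063 without the 10000-cell library of experiment 1 and -0.15 with the 5000-cell library added. Grb10 was at -0.26 without the 10000-cell library of experiment 1, which had 0 counts.

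Between cell numbers, 2 genes were called with no filter and 4 with the experiment as a replicate block, and no member under any alternative run. Leaving out a library reversed Peg10 (0.16 and 0.03, in a range of -0.74 to 0.16), Mest (-0.07 and -6.56, in a range of -6.56 to 2.54), Cdkn1c (-0.42 and -0.28, in a range of -0.42 to 0.83) and Impact (0.48 and 0.24, in a range of -0.61 to 0.48). Such fits compare unequal shares of the experiments.

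With regions of the unified list 1 member had a promoter peak in place of 6, and with a window of 2500 bp 3 members had one in all 5 low-input lists in place of 0. The shares of all genes under these settings are not given, so these counts show only how the result moved. Requiring peaks of at least 50 bp took the lists with a body peak from 7 to 3 for Impact, from 8 to 7 for Peg10, from 3 to 1 for Snrpn and from 1 to 0 for Igf2 and Igf2r. Depth limits Mest, Grb10, Igf2 and Peg3, whose counts reach 0 to 53 per library.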
